A study of Homo sapiens with 1 sample.

Results

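The miR-320 family and miR-484 were followed in DLD-1, a long-established line of human colorectal carcinoma cells. The members were chosen by name, as all miRNA spots listed under hsa-miR-320a, hsa-miR-320b, hsa-miR-320c, hsa-miR-320d, hsa-miR-320e or hsa-miR-484 (written without hsa from here on). They came to 6 of the 2549 miRNAs on the array, 12 of 5893 probes and 120 of 50980 spots. The cells had received an siRNA that serves as negative control (si-NC) by transfection, and their miRNAs were read on 1 single-colour Agilent array. The study compared such cells with cells depleted of circLONP2, a circular RNA from the LONP2 gene, in search of miRNAs that depend on it. Only the control array was used here, which leaves no groups to compare and no p-value to give. The group was 1 transfected culture of 1 line with no biological replicate, and every error below is technical. Of 6 epithelial and intestinal marker miRNAs (miR-192-5p, miR-194-5p, miR-215-5p, miR-200c-3p, miR-141-3p and miR-375), 6 were called detected. Of 6 liver, muscle and neural markers only miR-9-5p was. Over the array 44.4% of all miRNAs were called detected. The marker lists were named after their values were seen, so the counts describe the array and test nothing.

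Most miRNAs are cut from a long primary transcript in the nucleus by the Drosha and DGCR8 microprocessor and then by Dicer in the cytoplasm. A few skip the first cut. The precursors of miR-320a and miR-484 are the textbook cases, since their 5′ end is a transcription start and carries the cap of a new transcript. Mirtrons skip Drosha by another route, as their precursors are short introns released by splicing. The study worked on the Drosha and DGCR8 step, and miRNAs that bypass it are a natural reference for such work.

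The mature sequences are shown because they set which members a probe can tell apart. The RefSeq sequences used here, on GRCh38.p14, covered 5 of the 6 members. The set used held none for miR-320a, although its gene MIR320A is annotated. Each is written 5′ to 3′ with its seed, bases 2 to 8, in capitals.
miR-320b: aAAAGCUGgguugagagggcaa
miR-320c: aAAAGCUGgguugagagggu
miR-320d: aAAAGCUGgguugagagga
miR-320e: aAAGCUGGguugagaagg
miR-484: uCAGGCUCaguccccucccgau
miR-320b, miR-320c and miR-320d had the same seed. miR-320e lacked their first base, so that its seed was shifted by 1 position. The 4 miR-320 sequences shared a run of 15 bases, aaagcuggguugaga, and differed at their 3′ ends. Positions are counted from 1 at the 5′ end of miR-320b, whose base stands first. miR-320c differed from it by C20U, miR-320d by G19A and miR-320e by G17A, and each of the 3 was also shorter than the 22 bases of miR-320b. miR-484 belonged to no such family and had a GC content of 63.6%, against 47.4% to 50% for the 4 miR-320 sequences.

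The shared seeds brought in 3 further miRNAs of the array that were not members.
miR-4429: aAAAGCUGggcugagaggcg
miR-3155a: cCAGGCUCugcagugggaacu
miR-3155b: cCAGGCUCugcaguggga
miR-4429 carried the seed of miR-320b, miR-320c and miR-320d. It matched the first 10 bases of miR-320b (aaaagcuggg), differed from it by U11C, G19C and C20G, and was shorter, at 20 bases. miR-3155a and miR-3155b carried the seed of miR-484 and, of the 2248 array miRNAs with a RefSeq sequence, only they and miR-484 had it.

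The hairpin genes show where the members are annotated, and 2 are printed with the mature miRNA in capitals.
MIR484: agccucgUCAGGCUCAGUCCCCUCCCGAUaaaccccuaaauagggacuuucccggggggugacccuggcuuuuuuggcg
MIR320B1: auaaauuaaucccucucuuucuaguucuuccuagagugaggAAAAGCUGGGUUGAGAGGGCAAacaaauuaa
MIR484 lies at chr16:15643294-15643372 on the plus strand and MIR320B1 at chr1:116671746-116671817 on the plus strand of GRCh38.p14. The mature miR-484 filled bases 8 to 29 of its 79-base hairpin, on the 5′ side. In MIR320B1 the mature miRNA filled bases 42 to 63 of 72, on the 3′ side, and the mature miRNA was on the 3′ side in all 7 miR-320 hairpins with a sequence.

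An annotated gene start was near MIR484 and not near most hairpins of the family. The starts of the miRNAs' own transcripts were not read. MIR484 ended 10 bases before the annotated start of NDE1, a gene of centrosome and spindle function, on the same strand. The nearest protein-coding gene to MIR320A was POLR3D, a subunit of RNA polymerase III, less than 1 kb away. That gap was to the gene and not to its start, since gene starts were not available for that chromosome. MIR320A had no sequence in the set used, so it is not among the hairpins counted below. The other hairpins, MIR320B1, MIR320B2, MIR320C1, MIR320C2, MIR320D1, MIR320D2 and MIR320E, lay 4849 to 76363 bases from the nearest annotated gene start on either strand (median 22295). MIR320B2 lay inside the span of NVL, MIR320C1 inside ABHD3, MIR320C2 inside OSBPL1A and MIR320E inside PRKD2, while MIR320B1, MIR320D1 and MIR320D2 lay in no listed gene. Whether these places are exons or introns was not read. Among 1562 human hairpins with a sequence, 173 lay within 1 kb of a start, or 11.1%, and 1 of the 8 member hairpins did. The hairpins of miR-320b to miR-320e were thus not next to an annotated gene start. That does not decide whether they are transcription-start miRNAs, since the starts of their own transcripts were not read. The array measures mature miRNAs and says nothing of how they were cut.

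All 6 members were called detected by the scanner software, where 44.4% of all miRNAs were. All 6 also passed stricter rules. These asked that at least 50% of the spots be well above background for 1 probe (met by 37.9% of all miRNAs) or for every probe (29.4%), that the median spot exceed the 99th percentile of negative control spots (31.0%), or that the total gene signal be 5 or more (33.3%). Each member had 20 of 20 spots well above background and none saturated. The share of all miRNAs for which this held was not counted, and dimmer ones such as miR-1226-5p also had 20 of 20 spots well above background. The dimmest of the 120 spots had an intensity of 113, which was 6.99 times the 99th percentile of the 1000 negative control spots (16.1). The members were thus read far from the limit of the array. Intensity is in arbitrary scanner units after background subtraction.

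miR-320a, whose gene is next to POLR3D, had 10 spots for each of its 2 probes. On its dimmer probe the spots ran from 188 to 213 with a median of 200.4, and the mean was 200.4 ± 8.58 (SD, 10 spots). On its brighter probe they ran from 366 to 408 with a median of 386, and the mean was 389 ± 15.2. No spot of the dimmer probe reached the range of the brighter. The total gene signal is on another scale than these spot intensities. It sums the total probe signals given by the software, here 36.6 and 71.1, and was 108 ± 8.03 (error from the software).

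miR-320b, annotated on chromosome 1, gave spots of 203 to 242 (median 215) on the dimmer probe, with a mean of 218 ± 13.1. On the brighter probe they were 367 to 429.7 (median 408), with a mean of 405 ± 22.2. The probes did not overlap here either, and the total gene signal was 114 ± 8.44.

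miR-320c, annotated on chromosome 18, had the widest gap between probes. Its dimmer probe gave 176 to 259.8 (median 195), where the highest spot carried an outlier flag, and the mean of the 9 others was 193 ± 11.5. Its brighter probe gave 494 to 550.5 (median 544), with a mean of 532 ± 22.2. The brighter probe held 73.4% of the total gene signal of 133 ± 10.4.

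miR-320d, annotated on chromosomes 13 and X, had the closest probes. Its dimmer probe gave 478 to 564 (median 539), with 2 outlier spots at the low end and a mean of 547 ± 12.8 over the other 8. Its brighter probe gave 697 to 818 (median 746), with a mean of 751 ± 37.04. The spots of the probes stayed apart, and the total gene signal was 237 ± 17.02.

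miR-320e, annotated on chromosome 19, was the shortest of the miR-320 sequences shown. It gave 325 to 371 (median 353) on the dimmer probe, with a mean of 348 ± 15.95. The brighter probe gave 569 to 653 (median 611), with a mean of 608 ± 27.5. These ranges did not overlap, and the total gene signal was 175 ± 12.8.

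miR-484, the member outside the family, gave 113 to 131 (median 124) on its dimmer probe, with a mean of 123 ± 5.92. Its brighter probe gave 209 to 262 (median 227), the highest spot being an outlier, and the mean of the 9 others was 226 ± 9.92. The total gene signal was 63.8 ± 4.76. In each of the 6 members, then, the lowest spot of the brighter probe was above the highest of the dimmer. How many miRNAs of the whole array show this was not counted, so it is not read as a trait of the members.

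**Figure D1:**
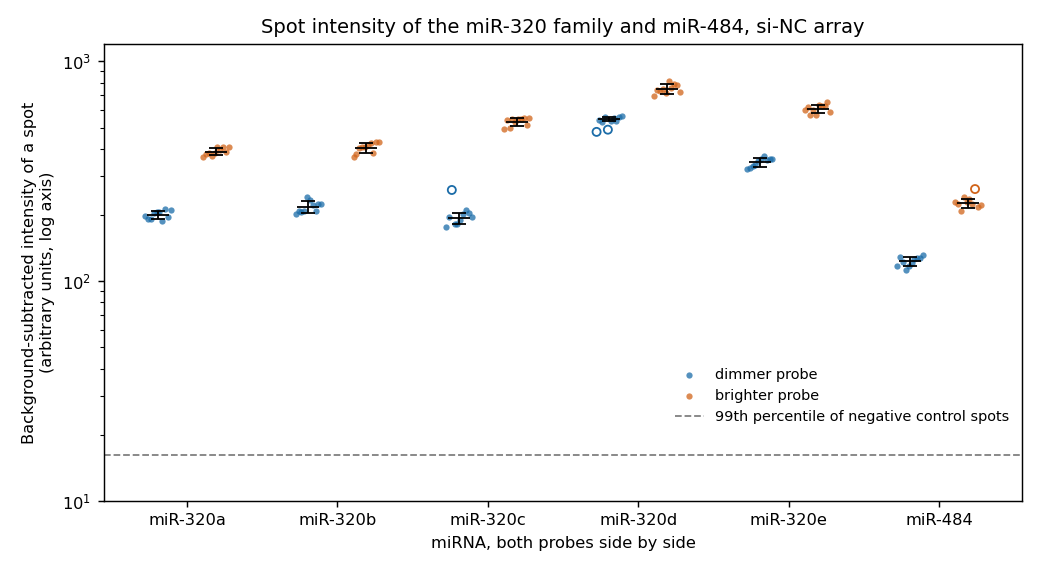
Background-subtracted intensity of every spot (log axis, arbitrary units) for the 2 probes of each member on the si-NC array, with the mean and SD over spots in black, outlier spots as open circles and the 99th percentile of negative control spots as a dashed line. All 120 spots lie above that line at 16.1, and the probes of a member form separate groups. Such separation was not counted for other miRNAs.

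Among the detected miRNAs of the array, the total gene signals of the members were well above the median, and none was the highest. Over the 1133 detected miRNAs the median was 12.5. The share of detected miRNAs with a lower signal was 77.7% for miR-484, 82.3% for miR-320a, 82.7% for miR-320b, 84.2% for miR-320c, 86.7% for miR-320e and 89.1% for miR-320d. These shares rank brightness and not abundance, since probes differ in how strongly they bind, and for the same reason the members were not put in an order of level. With the array scaled to the 75th percentile of the spots of detected miRNAs (an intensity of 143), the log2 signal was 0.97 ± 0.06 for miR-320a (SD over replicate spots of a probe), 1.06 ± 0.08 for miR-320b, 1.17 ± 0.07 for miR-320c, 2.17 ± 0.06 for miR-320d, 1.69 ± 0.07 for miR-320e and 0.23 ± 0.07 for miR-484. All 6 were above that reference. With the dimmer probe alone, a setting chosen after seeing the data, miR-484 fell to -0.21, below it.

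Replicate spots of a member agreed closely. The coefficient of variation (CV) over the spots of a probe ran from 2.34% to 5.996% with a median of 4.55% over the 12 probes. It was 8.74% over the 1943 usable probes of the array, those in which 50% or more of the spots passed the flag for well above background, and 5.68% over the 535 of these with a mean intensity of 100 to 1000. Outlier flags fell on 4 of the 120 member spots, or 3.33%, against 4.51% of all miRNA spots. The SE of a probe mean from its spots was 0.829% to 1.99%, while the error the software gives a probe was 10.01% to 10.2%. The software error of a probe was thus several times the SE from its spots. It was added in quadrature over the 2 probes, which gave the 7.17% to 7.83% error of the total gene signals.

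The 2 probes of each member differed by more than the scatter of their spots. The brighter over the dimmer probe was 0.46 ± 0.03 on the log2 scale for miR-320d (SE from replicate spots), 0.81 ± 0.03 for miR-320e, 0.87 ± 0.03 for miR-484, 0.89 ± 0.04 for miR-320b, 0.96 ± 0.03 for miR-320a and 1.46 ± 0.03 for miR-320c. As folds these were 1.37 for miR-320d and 2.75 for miR-320c, with the other 4 at 1.75 to 1.94. Against spot scatter each was 17.9 SE or more. The sign is fixed by taking the brighter over the dimmer probe, and the share of all miRNAs that far past spot scatter was not counted. With the software error of each probe in its place, the difference was 2.23 times its error for miR-320d and 3.94 to 7.12 times for the other 5.

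For the array as a whole, the brightest and dimmest probe of 801 detected miRNAs with 2 or more usable probes differed by a median of 0.35, with quartiles of 0.14 and 0.81. All 6 members were above that median, and miR-484, miR-320a, miR-320b and miR-320c were above the upper quartile, as 25% of all were. With no filter on dim probes the median over all was 0.465 and 5 of the 6 members were above it, with miR-320d below it at 0.456. A difference of 1 or more was found in 19.6% of the 801 miRNAs and in 1 member, miR-320c. Among the 207 with a total gene signal of 50 to 500, the range that holds the members, the median was 0.36 and the upper quartile 0.95, so that miR-320a and miR-320c remained above it. Each member had 2 probes, while some of the 801 miRNAs had 3 or 4 usable probes. A brightest over dimmest difference tends to grow with the number of probes, and miRNAs with 2 probes were not compared alone. The files list no probe sequences, and the part of near-identical family members in each probe signal was not tested.

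**Figure D2:**
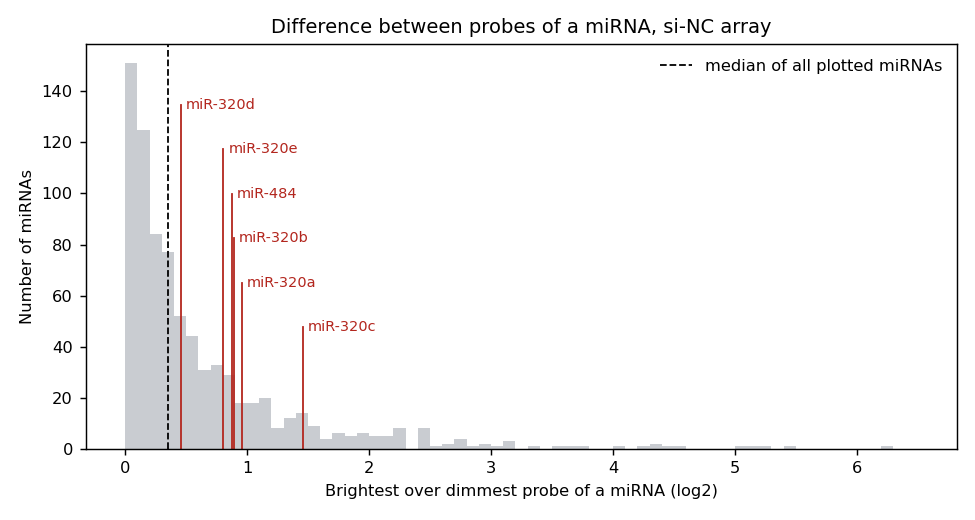
Histogram of the log2 difference between the brightest and dimmest probe of 801 detected miRNAs on the si-NC array, with the members as red lines whose heights only space the labels. The members run from 0.46 (miR-320d) to 1.46 (miR-320c), all to the right of the dashed median at 0.35.

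The miRNAs that share a seed with a member gave little signal. miR-4429, with the seed of miR-320b, miR-320c and miR-320d, was not called detected. Its 2 probes had means of 1.27 ± 0.923 (SD, 9 spots) and 3.31 ± 2.22 (10 spots), with 0 of 20 spots well above background. miR-3155a and miR-3155b, with the seed of miR-484, were called detected at 4.43 ± 0.749 and 4.29 ± 0.741. They had 7 and 5 of 20 spots well above background, and their probe means of 9.60 to 14.6 were all under the 16.1 of the negative control spots.

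A list of miRNAs taken as mirtrons, miR-877, miR-1224 to miR-1229 and miR-1236 to miR-1238, was read for comparison. Whether each of them, or each member, is made without Drosha in these cells was not tested. Of 18 arms, 12 were called detected, or 66.7%, against 44.4% of all miRNAs. The signals of the 12 ran from 1.64 to 39.6 with a median of 13.8, close to the 12.5 over all detected miRNAs, and all were dimmer than the 63.8 of miR-484, as brightness and not as abundance. The 3 highest were miR-1226-5p at 39.6 ± 2.92, miR-1227-3p at 39.1 ± 3.17 and miR-1236-5p at 32.2 ± 2.38. miR-1226-5p and miR-1236-5p had 20 of 20 spots well above background and miR-1227-3p had 11. miR-877-5p, a well-known mirtron, was not called detected, with 1 of 20 such spots. The opposite arms miR-1226-3p and miR-1236-3p were not detected either, with 0 of 20. These are counts of a chosen list on 1 array, and nothing particular to mirtrons is drawn from them.

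**Figure D3:**
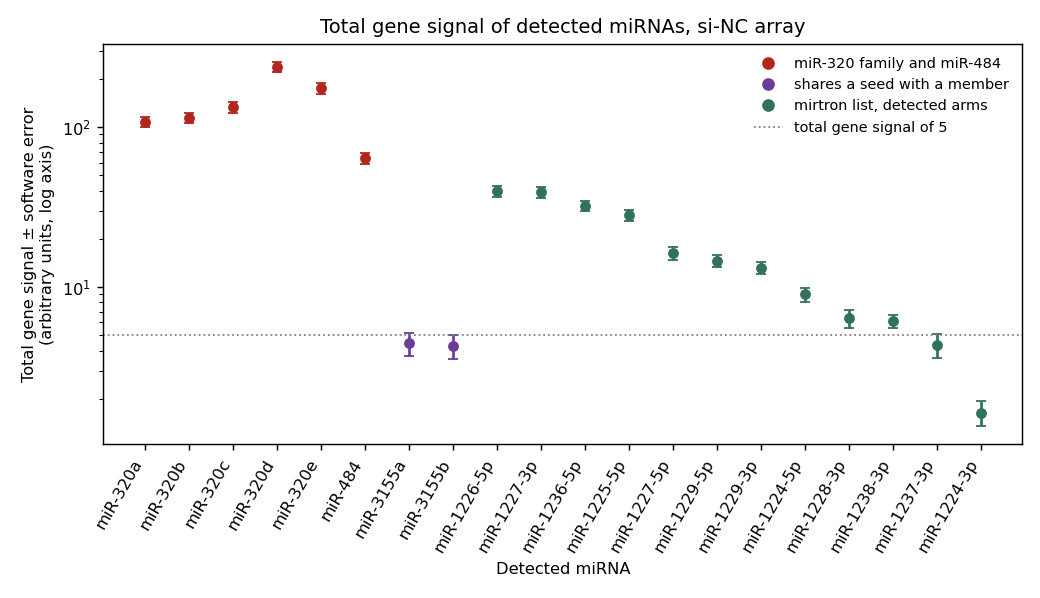
Total gene signal (log axis, arbitrary units) with the software error for the 6 members, the detected miRNAs that share a seed with a member and the detected arms of the mirtron list on the si-NC array. The members lie between 63.8 and 237, miR-3155a and miR-3155b lie just under the dotted line at 5, and the mirtron arms lie between 1.64 and 39.6.

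The authors' processed values of the members stayed close to the scanner signal. On the log2 scale the deposited value was 6.79 for miR-320a, 6.85 for miR-320b, 7.06 for miR-320c, 7.94 for miR-320d, 7.47 for miR-320e and 6.13 for miR-484. Each was above the log2 of its total gene signal, by 0.010 for miR-320c to 0.13 for miR-484, with a median of 0.028. Over the 207 detected miRNAs with a total gene signal of 50 to 500 the same difference ran from -0.086 to 0.17 with a median of 0.044. miR-4429 was listed at 2.32, the lowest value of the table, and so were the undetected mirtron arms.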

How the data were processed

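Per the labels, a ligase joined Cyanine 3-pCp to the RNA, while the study's methods describe another labelling kit. Per the file headers, the software was Feature Extraction 11.0.1.1 and the array design used hg19. The deposited intensity is background subtracted and not normalized between arrays. The authors also deposited log2 values, quantile normalized in GeneSpring, whose floor was found from the values. Their log base was inferred from the scanner signal.

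Control spots were kept out, and so were outlier spots, except in the lowest, median and highest spot of each probe, which cover all 10 spots. Detection was the software flag. A probe entered the array-wide CV and probe differences if 50% or more of its spots passed the flag for well above background. Errors are SD or SE over replicate spots, or the software error. The number of arrays limits the precision. Alternatives were other detection rules, the percentile over all miRNA spots, normexp (offset 50), outlier spots kept, the median of spots, block medians over 16 blocks removed, no filter on dim probes and deposited values. Code was checked on simulated data. Python 3.11.15, numpy 2.4.6, pandas 2.3.3, matplotlib 3.10.9, R 4.3.3 and limma 3.58.1 were used.

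RefSeq sequences on GRCh38.p14 were matched by name, for 2248 of 2549 array miRNAs. Named miRNAs were the members, array miRNAs sharing bases 2 to 8 with a member, and the 3 highest mirtron arms. The undetected mirtron arms and the markers were named after their values were seen. The members and lists were chosen with earlier results of these data known.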

Additional observations from a re-analysis of the deposited data

How the results depend on the processing

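All 6 members stayed detected under each of the 4 other detection rules. The median log2 signal of the members, 1.11, moved to 3.55 with the 75th percentile taken over all miRNA spots, whose reference is lower by construction, and to 0.90 with normexp. It moved to 1.70 with the brightest probe alone and to 0.55 with the dimmest alone, both chosen after seeing the data, as the probe differences require. The median CV of 4.55% moved to 3.44% with block medians removed. The median probe difference of 0.88 moved to 0.73 with normexp, whose offset of 50 is added to every signal, and the members then ran from 0.42 to 1.22 beside a median of 0.17 over all 801 miRNAs. With no filter on dim probes the median over all miRNAs was 0.46, and 5 of 6 members were above it. The deposited value minus log2 signal, 0.028, moved to -1.35 against the mean log2 spot signal, which is on another scale than the total gene signal. For block medians the cause was not tested. Of 66 alternative values of single members 28 moved by more than the SD of their spots, and the rest did not. No paired analysis was possible because there was 1 sample. Low signal over background limited the values of miR-4429, miR-3155a, miR-3155b and the dim mirtron arms.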
